A study of Mus musculus with 34 samples.

Results

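Msln, Upk3b, Upk1b, Wt1, Krt8, Krt18, Krt19 and Tbx18, 8 genes of the epicardium and of mesothelium, were followed in mouse hearts after carbon black exposure. They were found as the probes whose RefSeq accession belongs to 1 of these genes, which gave 10 of the 41174 probes on the array and 19 spots per array. All 8 genes passed the filter on dim probes and entered the fit of 19798 genes. Female C57BL/6 mice, bought at 5 to 6 weeks of age, were instilled into the trachea with 162 µg (0.162 mg) of Printex 90 carbon black nanoparticles in 40 µl of vehicle followed by 150 µl of air, or are labelled vehicle control. The vehicle was 0.9% sodium chloride with 10% by volume of cell-free lavage fluid from mice of the same strain, and the labels give no other manipulation of either arm. Hearts were sampled after 1 day (6 carbon black and 6 control arrays), 3 days (5 carbon black and 6 control arrays) and 28 days (5 carbon black and 6 control arrays). The tissue was a random section through both ventricles, so the share of heart surface, atrium and fat in a section was not fixed. Each array compared 1 heart, labelled with Cy5, with a pooled mouse reference RNA, labelled with Cy3, and all values below are log2 ratios of heart over reference unless another scale is named.

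The epicardium is the mesothelial sheet that covers the heart, and the pericardium, pleura and peritoneum carry a mesothelium of the same kind. These cells are a simple epithelium, with the keratins 8, 18 and 19 as intermediate filaments, and they also make mesothelin and uroplakins at their surface. In the embryo, epicardial cells that express the transcription factors Wt1 and Tbx18 lose their epithelial character and supply fibroblasts and vascular mural cells to the heart wall, with retinoic acid made in the epicardium as one of the signals. In a tissue extract such as this, fewer cells of a type and less RNA per cell cannot be told apart.

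Promoter letters are shown because most of these genes varied together across hearts, as described below for their levels. RefSeq entries (build GRCm38.p6, 250 bases before to 50 after the start) were matched by symbol for 4 of the 8 genes, namely Upk3b, Krt8, Krt18 and Tbx18. Msln, Upk1b, Wt1 and Krt19 are named only. The 3 that held a searched motif are printed 5′ to 3′ with the motif in capitals.
Upk3b (chr5:136038246-136038545, plus strand): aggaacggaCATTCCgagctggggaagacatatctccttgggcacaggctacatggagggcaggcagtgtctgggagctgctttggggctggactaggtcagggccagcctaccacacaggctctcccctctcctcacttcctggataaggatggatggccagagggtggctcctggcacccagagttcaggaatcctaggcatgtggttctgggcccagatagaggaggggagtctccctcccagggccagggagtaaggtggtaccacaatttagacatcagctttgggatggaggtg
Krt8 (chr15:102004293-102004592, minus strand): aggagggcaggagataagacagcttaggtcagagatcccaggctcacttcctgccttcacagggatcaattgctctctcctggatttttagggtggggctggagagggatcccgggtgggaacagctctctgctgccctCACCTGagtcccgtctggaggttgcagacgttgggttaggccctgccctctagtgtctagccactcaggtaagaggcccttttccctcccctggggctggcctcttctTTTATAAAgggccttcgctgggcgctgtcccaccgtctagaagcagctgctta
Krt18 (chr15:102027966-102028265, plus strand): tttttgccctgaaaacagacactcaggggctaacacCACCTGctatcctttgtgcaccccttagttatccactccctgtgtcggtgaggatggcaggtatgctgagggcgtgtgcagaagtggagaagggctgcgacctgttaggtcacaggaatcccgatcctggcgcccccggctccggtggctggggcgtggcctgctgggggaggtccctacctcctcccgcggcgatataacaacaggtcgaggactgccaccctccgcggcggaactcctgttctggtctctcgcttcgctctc
Searched on both strands were TATAAA, the TATA box, found in 13.6% of the 32851 promoters of this length, GGGCGG, a GC box, in 35.7%, GGAATG, the core read by TEAD factors, in 14.7%, and CACCTG, the E-box read by Snail and Zeb repressors, in 20.2%. Krt8 held TATAAA on both strands in overlapping bases (248 to 253 and 250 to 255) and CACCTG once, and Krt18 held CACCTG once. Upk3b held GGAATG once on the reverse strand, at bases 10 to 15, and the Tbx18 promoter held none of the 4 motifs. These matches describe the letters of the windows only.

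Depth varied between arrays, with 42.8% to 66.6% of spots well above background (median 54.85%) and a median sample signal of 99 to 155. Ventricular markers were in place: all 9 measured, among them Tnni3, Myl2 and Pln, were well above background on 34 of 34 arrays. An atrial marker score, the mean deviation of 6 atrial genes such as Myl7 and Sln from their median over all arrays, lay between -4.28 and -2.22 on 5 arrays and between -0.66 and 0.66 on the other 29 arrays. The carbon black arm held 2 of these 5 arrays (replicate 6 at day 1 and replicate 2 at day 3) and the control arm held 3, which were replicate 2 at days 1 and 28 and replicate 4 at day 3. Carbon black day 1 replicate 6 also had the lowest median correlation with its own group (0.768, against 0.839 to 0.958 for the other 33 arrays), and its ratios followed the authors' deposited values with r = 0.8474, or 0.9977 without background correction. Arm was tied to place on the slide: all 10 arrays at position 4 were carbon black and 12 of the 14 arrays at position 1 were control.

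No epicardial or mesothelial gene differed between carbon black and control hearts beyond the spread between arrays. Averaged over the 3 days, 0 of the 8 genes passed an adjusted p of 0.05 (limma, Benjamini-Hochberg over all genes), against 1.95% of all 19798 genes, and 0 of 8 had an unadjusted p under 0.05, against 18.3% of all genes. Of the 8 log2 fold changes, 7 were above 0 and 1 was below 0, where 49.6% of all genes lay, and their median was 0.17 against 0.00105 over all genes. Most of these genes varied together across hearts, as described below, so their signs are not 8 separate results. With array position as a block, the 3-day effects of Msln, Upk3b and Krt8 were below 0 as well. The 3 surface proteins Msln, Upk3b and Upk1b and the factor Wt1 had positive values with wide intervals, and the keratin Krt18 a negative one. Carbon black and control groups overlapped for every one of the 8 genes on every day, and groups did not overlap for 0.359%, 0.899% and 0.379% of all genes on days 1, 3 and 28.

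**Figure D1:**
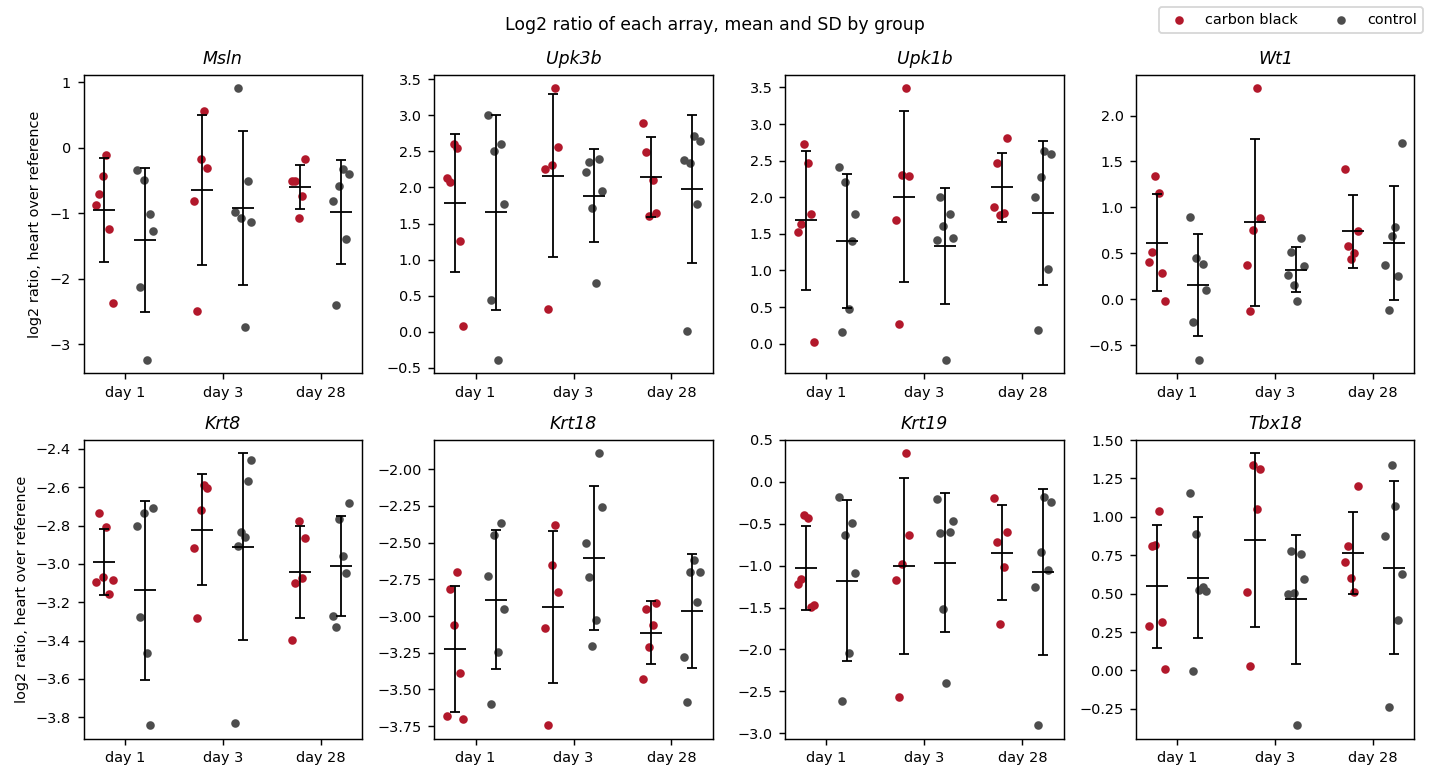
Log2 ratio of heart over reference (vertical axis, a scale of its own for each gene) for each array, with carbon black in red left of control in grey at days 1, 3 and 28; bars give the mean and SD of a group. Carbon black and control points overlap for all 8 genes on all 3 days, and low points occur in both arms.

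Mesothelin (Msln), a surface protein anchored by a lipid tail and cut from a larger precursor, had the widest range of the 8 genes, 17.6-fold between its lowest and highest array. At day 1 the lowest, median and highest Msln values were -2.36, -0.79 and -0.11 in carbon black hearts, against -3.23, -1.14 and -0.34 in control hearts. At day 3 Msln was -0.81, -2.49, -0.18, 0.55 and -0.31 in the 5 carbon black hearts, and its lowest, median and highest control values were -2.73, -1.02 and 0.91. At day 28 it was -0.51, -0.51, -1.08, -0.74 and -0.17 in carbon black hearts, against -2.40, -0.69 and -0.32 as the lowest, median and highest in control hearts. Each arm thus held hearts with little Msln signal at days 1 and 3, while at day 28 the low heart was a control. The carbon black effect averaged over the 3 days was 0.37 ± 0.31 (SE; 95% confidence interval -0.26 to 1.00; adjusted p = 0.573).

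The uroplakins Upk3b and Upk1b, membrane proteins first known from the plaques of the urothelium and shared with mesothelium, had the same pattern. Upk3b had a lowest, median and highest value of 0.08, 2.10 and 2.60 in carbon black hearts at day 1, against -0.39, 2.14 and 3.01 in control hearts. At day 3 Upk3b was 2.25, 0.31, 2.31, 3.38 and 2.56 in carbon black hearts, against 0.68, 2.08 and 2.39 as the lowest, median and highest in control hearts. At day 28 it was 2.90, 2.49, 1.61, 2.10 and 1.64 in carbon black hearts, against 0.01, 2.36 and 2.71 in control hearts. Apart from the 6 lowest arrays, Upk3b was 1.26 or more above the reference in every heart, and the arms interleaved. Its effect over the 3 days was 0.19 ± 0.32 (SE; 95% confidence interval -0.47 to 0.85; adjusted p = 0.816).

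Upk1b, a tetraspanin, had the largest estimate of the 8 genes. The lowest, median and highest were 0.02, 1.70 and 2.73 in carbon black hearts at day 1, against 0.16, 1.59 and 2.41 in control hearts. At day 3 the 5 carbon black hearts had 1.69, 0.27, 2.30, 3.49 and 2.29, and the lowest, median and highest control values were -0.22, 1.53 and 2.01. At day 28 the carbon black hearts had 1.87, 2.47, 1.76, 1.79 and 2.81, against 0.19, 2.14 and 2.63 in control hearts. The highest Upk1b value (replicate 4 of the day 3 exposed hearts) and the lowest (replicate 4 of the day 3 controls) stood at opposite ends of the 34 arrays. The Upk1b effect was 0.44 ± 0.30 over the 3 days (SE; 95% confidence interval -0.17 to 1.04; adjusted p = 0.467) and 0.67 ± 0.52 at day 3 alone (SE; adjusted p = 0.645).

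Wt1, the Wilms tumour zinc finger factor, came closest to the threshold. Its 3-day effect was 0.37 ± 0.19 (SE; 95% confidence interval -0.02 to 0.75; unadjusted p = 0.0606, adjusted p = 0.302). At day 1 the lowest, median and highest Wt1 values were -0.02, 0.46 and 1.34 in carbon black hearts, against -0.66, 0.24 and 0.90 in control hearts. At day 3 the carbon black hearts had 0.37, -0.13, 0.76, 2.30 and 0.88, against -0.01, 0.31 and 0.67 as the lowest, median and highest in control hearts. At day 28 they had 1.42, 0.58, 0.44, 0.50 and 0.75, against -0.11, 0.53 and 1.70 in control hearts. Carbon black day 3 replicate 4, at 2.30, was the highest of all arrays, and control day 28 replicate 6 the next. With array position as a block, the Wt1 effect was 0.20 ± 0.27 (SE; adjusted p = 0.919).

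The Wt1 probe was printed 10 times on each array, so the noise between spots could be read for this gene. The SD between spots of an array had a median of 0.10 and ran from 0.02 to 0.40, with 19 of the 340 spots left out as flagged. Pooled over arrays it was 0.15, which gives a 10-spot mean an SE of 0.05. The SD between hearts of a group was 0.57, and it holds error of labelling, hybridisation and slide that repeat spots do not measure. The means of the 14 slides took up 27.7% of the variance of Wt1 (40.5% in the median gene) and those of position 16% (8.9% in the median gene). With 34 arrays, such raw shares lie above 0 even where slide and position have no effect.

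The T-box factor Tbx18 lay close to the reference, between -0.36 and 1.34 over the 34 arrays. It averaged 0.55 ± 0.40 in carbon black and 0.60 ± 0.39 in control hearts at day 1 (SD, n = 6 each). At day 3 it averaged 0.85 ± 0.57 in carbon black hearts (SD, n = 5) and 0.46 ± 0.42 in control hearts (SD, n = 6). At day 28 the means were 0.77 ± 0.27 in carbon black hearts (SD, n = 5) and 0.67 ± 0.56 in control hearts (SD, n = 6). The day 3 difference of 0.38 ± 0.26 (SE; limma adjusted p = 0.594) was within the spread. A dimmer Tbx18 probe was well above background on 15 of 34 arrays only, and it followed the brighter one with r = 0.726. At day 1 it was higher in carbon black hearts by 0.25 ± 0.10 (SE, limma unadjusted p = 0.02, adjusted p = 0.625). The brighter probe gave -0.06 ± 0.25 (SE, limma adjusted p = 0.985), so the sign depended on the probe and neither passed.

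Krt18 is the acidic partner that pairs with Krt8 in simple epithelia. By the probes used in the fit, it was the 1 gene with a lower estimate on all 3 days. It averaged -3.22 ± 0.43 in carbon black and -2.89 ± 0.48 in control hearts at day 1 (SD, n = 6 each), and -2.94 ± 0.52 in carbon black (SD, n = 5) and -2.60 ± 0.49 in control hearts (SD, n = 6) at day 3. At day 28 it averaged -3.11 ± 0.21 in carbon black (SD, n = 5) and -2.97 ± 0.39 in control hearts (SD, n = 6). The 3-day effect of -0.27 ± 0.14 (SE; 95% confidence interval -0.57 to 0.02; limma adjusted p = 0.317) did not pass. With median centring in place of loess it was 0.14 on a scale where the median of all genes was 0.19, so Krt18 lay 0.05 below that median.

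Krt19, a keratin of simple epithelia that pairs with Krt8, averaged -1.03 ± 0.50 in carbon black and -1.18 ± 0.96 in control hearts at day 1 (SD, n = 6 each). It averaged -1.001 ± 1.05 in carbon black (SD, n = 5) and -0.97 ± 0.83 in control hearts (SD, n = 6) at day 3, and -0.84 ± 0.56 in carbon black (SD, n = 5) and -1.08 ± 0.99 in control hearts (SD, n = 6) at day 28. The Krt19 effects of 0.15, -0.03 and 0.23 on days 1, 3 and 28 had SEs of 0.46 to 0.49, and none passed. The arms interleaved over a 9.45-fold range.

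Krt8, the basic partner of Krt18, was read by 2 probes that disagreed. By the brighter probe, used in the fit, its 3-day effect was 0.07 ± 0.12 (SE; limma adjusted p = 0.822), and by the dimmer probe -0.27 ± 0.14 (SE; limma adjusted p = 0.304). The dimmer probe gave -0.16, -0.5 and -0.16 on days 1, 3 and 28, negative on each day as for Krt18. The probes correlated with r = 0.203 over the 34 arrays. On control day 1 replicate 5 and control day 3 replicate 1 the brighter probe gave -3.84 and -3.83, its lowest 2 values, while the dimmer probe gave -2.70 and -2.41, its 4th and 2nd highest of 34. The dimmer probe tracked Krt18 with r = 0.901 and Krt19 with r = 0.779, against 0.413 and 0.25 for the brighter one. The direction of Krt8 thus depended on the probe, and neither value passed.

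**Figure D2:**
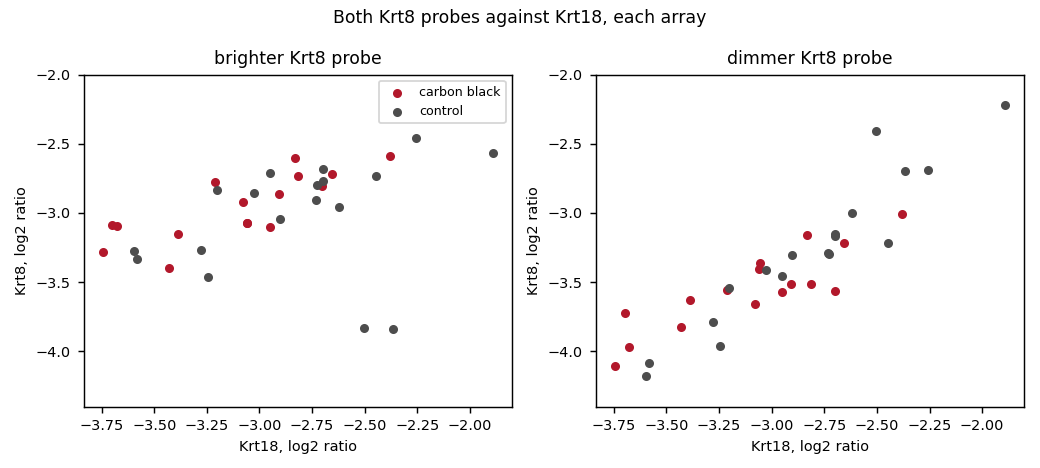
Log2 ratio of Krt8 (vertical axis) against Krt18 (horizontal axis) on each of 34 arrays, by the brighter probe on the left and the dimmer probe on the right; carbon black is red and control grey. Over 34 arrays r is 0.413 on the left, where 2 control arrays near -3.8 stand away from the rest, and 0.901 on the right.

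By single day the result was the same for the probes used in the fit. At day 1, 0 of the 8 genes passed (0% of all genes did), 0 had an unadjusted p under 0.05 (7.21% of all genes) and 2 were below 0 (51% of all genes). At day 3, 0 passed (0%), 0 had an unadjusted p under 0.05 (11.1%) and 2 were below 0 (47.1%). At day 28, 0 passed (0%), 0 had an unadjusted p under 0.05 (2.98%) and 2 were below 0 (48%). The intervals at day 1 were widest for Upk3b (-0.98 to 1.23) and narrowest for Krt8 (-0.25 to 0.54), so the size of change that was not detectable with 5 or 6 hearts differed between the genes. A limma F-test of whether the carbon black effect differed between days passed for 0 of 8 genes (0% of all genes), with unadjusted p between 0.474 (Tbx18) and 0.98 (Upk3b) and 1.01% of all genes under 0.05.

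**Figure D3:**
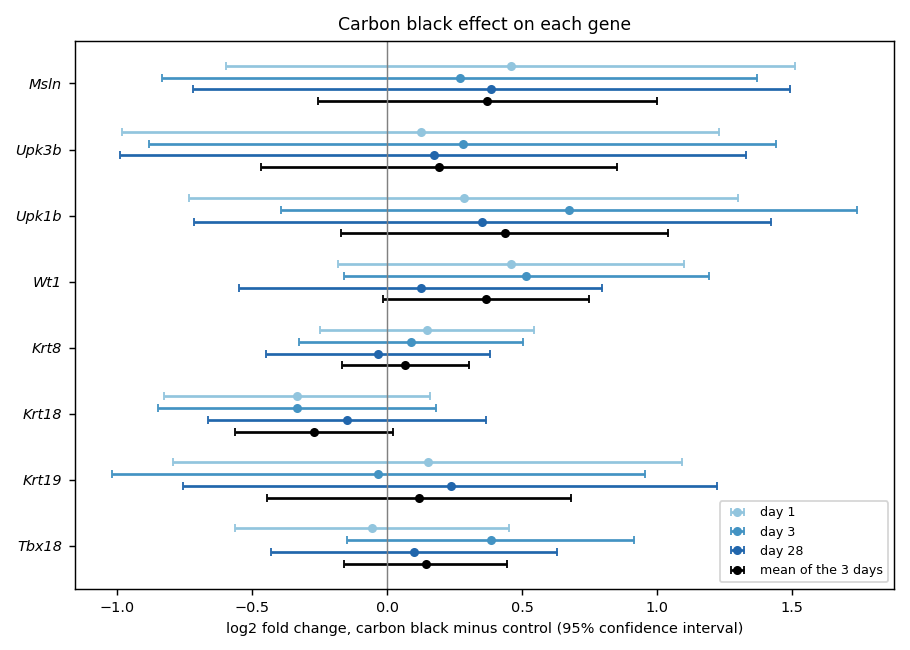
Log2 fold change of carbon black minus control (horizontal axis) with its 95% confidence interval for each gene at days 1, 3 and 28 and as the mean of the 3 days (black). Every interval includes 0, the black Wt1 interval by the least (-0.02 to 0.75).

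Later days were set against day 1 as the mean of both arms. The 8 log2 fold changes of day 3 minus day 1 were all above 0, with 0 below (47.1% of all genes were), and ran from 0.08 for Tbx18 to 0.40 for Msln. Those of day 28 minus day 1 were also all above 0, with 0 below (46.1% of all genes were), and ran from 0.02 for Krt18 to 0.42 for Upk1b. Both sets share the day 1 hearts, and most of these genes varied together across hearts, so the signs are not separate results. None of the 8 genes passed at day 3 (0% of all genes did) or at day 28 (0%), and 0 had an unadjusted p under 0.05, against 5.01% of all genes at day 3 and 3.65% at day 28 (limma). The dimmer Krt8 probe, outside the fit, gave 0.37 ± 0.17 for day 3 minus day 1 (SE, limma unadjusted p = 0.039, adjusted p = 0.983).

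Most of these genes varied widely between hearts of the same group. The SD within groups was 0.94 for Msln, 0.99 for Upk3b, 0.91 for Upk1b and 0.84 for Krt19, against a median of 0.26 over all genes, and between 1.37% and 2.41% of genes had a larger SD than these 4. Wt1 followed with 0.57 (8.34% of genes higher), Tbx18 with 0.45 (16.2%), Krt18 with 0.43 (17.6%) and Krt8 with 0.35 (30% of genes higher). The means of the 6 groups took up 1.7% (Krt19) to 20.2% (Krt18) of the variance, and 13.9% in the median gene. Such raw shares lie above 0 even without a group effect.

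The same hearts were low for several of these genes. The 6 lowest arrays for Msln were also the 6 lowest for Upk3b, Upk1b and Wt1, and 5 of the 6 were among the 6 lowest for Krt19 and Tbx18, 4 for Krt18 and 3 for Krt8. They were the 5 arrays of low atrial score named above, together with control day 1 replicate 4. Carbon black day 1 replicate 6, among them, followed the authors' values with r = 0.8474, or 0.9977 without background correction. The part of that correction in its low values was not tested. For Msln a gap separated the sixth lowest array (-2.12) from the seventh (-1.39), and for Upk1b likewise (0.47 and 1.02). At the other end, carbon black day 3 replicate 4 was among the 5 highest arrays for 7 of the 8 genes. Control day 1 replicate 4 had an atrial score of 0.36 and the lowest Msln (-3.23), Upk3b (-0.39) and Wt1 (-0.66) of all arrays. The part of atrial content in these levels was not tested.

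**Figure D4:**
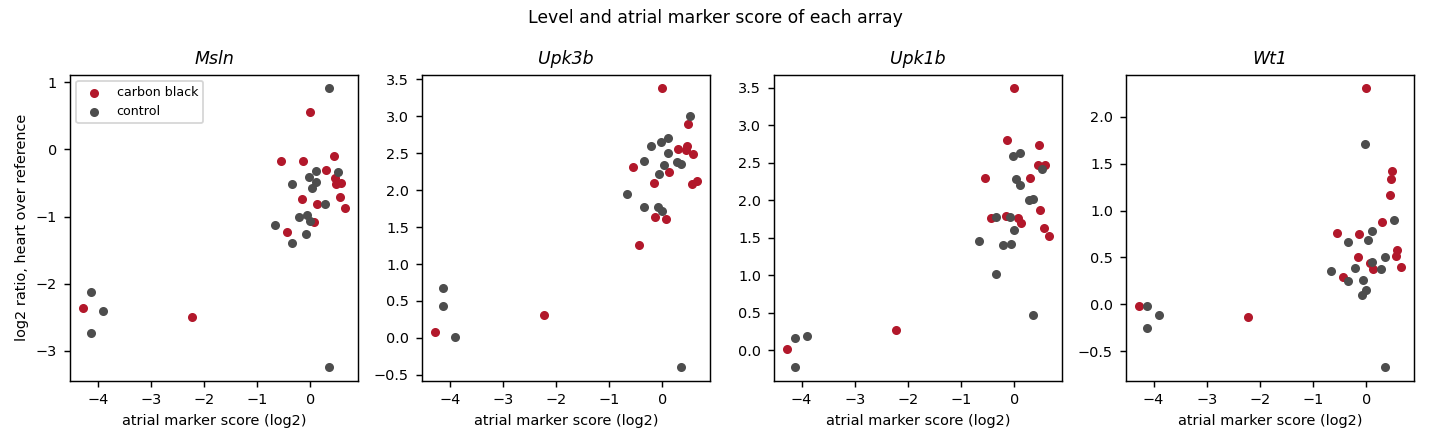
Log2 ratio of Msln, Upk3b, Upk1b and Wt1 (vertical axis) against the atrial marker score (horizontal axis, mean log2 deviation of 6 atrial genes) on each array, carbon black in red and control in grey. The 5 arrays at scores of -2.22 or less are low for all 4 genes, and 1 control array with an atrial score of 0.36 is lower still for Msln, Upk3b and Wt1.

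Correlations were computed on deviations from group means, for all 28 pairs of the 8 genes. Over 34 arrays all 28 were positive, with Pearson's r from 0.25 to 0.91 and a median of 0.749, and 25 passed (permutation within groups, two-sided, Benjamini-Hochberg over 28 pairs) or 26 by Spearman's rho. An r above 0.5 was found in 21 of the 28 pairs, and in 4.26% (Krt8) to 14.4% (Tbx18) of all genes set against a given member. The strongest was Msln with Upk1b (r = 0.91, rho = 0.92, permutation adjusted p = 2.33e-05; r = 0.909 without the 2 arrays farthest from the Msln median). Msln with Upk3b gave r = 0.897 and rho = 0.869, and Upk3b with Krt19 r = 0.888 and rho = 0.868. The 3 pairs that did not pass were those of Krt8 with Msln, Upk3b and Krt19, all by its brighter probe. The dimmer Krt8 probe gave r = 0.564 with Msln, 0.668 with Upk3b and 0.779 with Krt19, which were not tested.

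The correlations were also computed without the 6 low arrays. These were picked by low values of the same 8 genes, so leaving them out narrows the range and can by itself lower r. How much of the correlation rested on them cannot be told from this. Without them, a setting chosen after the data were seen, 26 of 28 pairs were positive, 15 passed, and the median r was 0.435. Msln with Upk1b then gave r = 0.764 (rho = 0.823, permutation adjusted p = 7e-05), Wt1 with Krt19 r = 0.825 (rho = 0.883, permutation adjusted p = 7e-05) and Upk3b with Krt19 r = 0.812 (rho = 0.812, permutation adjusted p = 7e-05), while Msln with Krt18 at r = 0.335 no longer passed (permutation adjusted p = 0.238). Among the 14 arrays of slide position 1 alone, 18 of 28 pairs passed with a median r of 0.765. Most of the 6 low arrays were at position 1 and none at position 4, so position 1 is no check apart from them. Among the 10 arrays of position 4, 8 passed with a median r of 0.662. The few arrays limit that count, as the smallest unadjusted permutation p there was 0.00108. Msln with Upk3b gave 0.965 at position 1 and 0.875 at position 4, and with slide means removed 24 of 28 pairs passed.

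**Figure D5:**
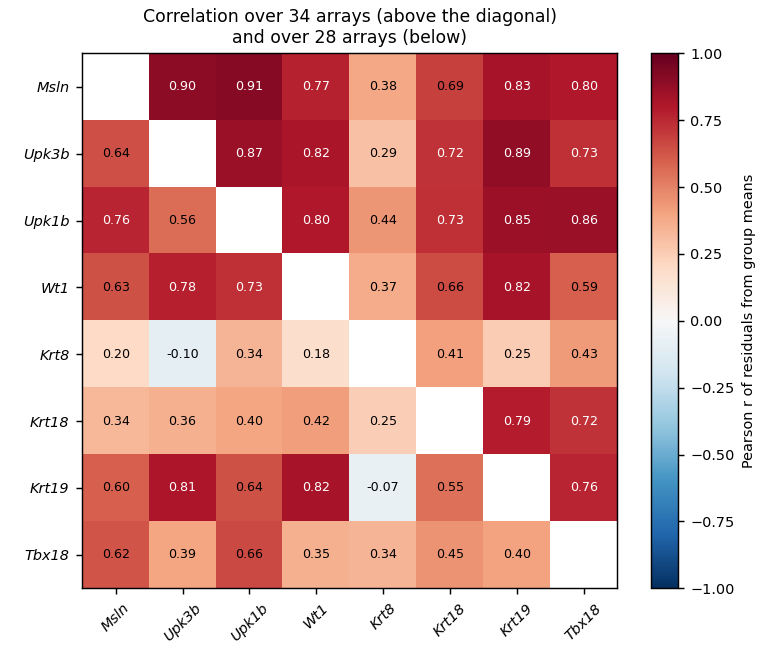
Pearson's r of deviations from group means for each pair of the 8 genes, over all 34 arrays above the diagonal and over the 28 arrays left without the 6 lowest below it. Values run from 0.25 to 0.91 above the diagonal and from -0.10 to 0.83 below it. Krt8, shown by its brighter probe only, is weakest in both.

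Among genes outside the 8, the closest was on the list of further mesothelial genes and the other 9 of the first 10 were not. Lrrn4, a leucine-rich repeat protein of mesothelium, had r = 0.967 with the mean of the 8 standardised genes over the 34 arrays, followed by the matrix protein Efemp1 (0.964), the binding protein Igfbp6 (0.949) and the cytochrome Cyp2s1 (0.94). Stk26, Zfp185, the cell-envelope protein envoplakin (Evpl), Bst1 and complement C2 lay between 0.911 and 0.935, and 1 further gene among the 10 is known by a clone name only. For single genes, Upk3b was most like Cyp2s1 (0.971), Krt19 most like Igfbp6 (0.951) and then the alarmin Il33 (0.93), Upk1b like the claudin Cldn15 (0.938) among named genes, Wt1 like C1s1 (0.906), Krt18 like S100a6 (0.868) and Tbx18 like Spink2 (0.912) and Reck (0.9). Among 19797 other genes, Upk1b ranked 3rd and Upk3b 4th in likeness to Msln. The brighter Krt8 probe was most like Dhcr7 (0.81), Smc1a (0.8) and Tmem98 (0.795) instead.

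Of 17 further genes of mesothelium and epicardium, 16 were on the array and 15 were tested. In carbon black minus control over the 3 days, 13 of the 15 were above 0 and 2 below (49.6% of all genes), with a median of 0.18. Most of them varied with the 8 genes across hearts, so this count is not separate from that of the 8. In either direction 0 passed, against 1.95% of all genes. The smallest unadjusted p belonged to Nkain4, a modulator of the sodium pump, with 0.86 ± 0.31 (SE; limma adjusted p = 0.122), then the Wnt agonist Rspo1 with 0.76 ± 0.35 (SE; limma adjusted p = 0.232) and the retinal dehydrogenase Aldh1a1 with 0.38 ± 0.21 (SE; limma adjusted p = 0.351). Their correlation with the mean of the 8 genes ran from 0.967 for Lrrn4, 0.887 for the membrane glycoprotein Gpm6a and 0.842 for the retinoic acid enzyme Aldh1a2 down to -0.03 for podoplanin (Pdpn), and was 0.901 for Lrrn4 without the 6 low arrays.

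Of the retinoic acid genes, 1 passed. Dhrs3, a reductase that turns retinal back into retinol, fell by 0.25 ± 0.06 on the log2 scale in carbon black against control hearts over the 3 days (limma adjusted p = 0.0448). It was 1 of 11 tested genes of 13 listed, where 1.95% of all genes passed. Of the 11, 7 were above 0, the median was 0.10, and 49.6% of all genes were below 0. The call was close to the threshold: with each array left out in turn Dhrs3 passed in 13 of 34 fits. It did not pass with slide, scan day or position as a fixed block or with Agilent's processed signals. Nor did it pass without the filter on dim probes (limma adjusted p = 0.0565) or without control day 3 replicates 4 to 6 (limma adjusted p = 0.123). These 3 arrays, all day 3 controls, are called those of high liver score in the closing section. Replicate 4 scored 2.34, below the highest carbon black day 3 heart at 2.72. With median centring it was 0.11 (adjusted p = 0.562), on a scale where the median of all genes was 0.19. Next by unadjusted p were the retinol dehydrogenase Rdh10 at 0.14 ± 0.09 (SE; limma adjusted p = 0.401) and the receptor Rxra at 0.13 ± 0.08 (SE; limma adjusted p = 0.419), neither of which passed.

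Genes of epithelial to mesenchymal transition did not pass either, with 0 of 12 against 1.95% of all genes. Of the 12, 3 were above 0 and 9 below (49.6% of all genes), and the median was -0.02. The smallest unadjusted p were those of the repressors Snai2 (-0.24 ± 0.10, SE; limma adjusted p = 0.185) and Zeb1 (0.26 ± 0.12, SE; limma adjusted p = 0.24) and of Tgfb1 (0.09 ± 0.05, SE; limma adjusted p = 0.345). Of 10 tested genes of other epithelia, from a list of 15, 0 passed (1.95% of all genes). Among these 10, 3 were above 0 and 7 below (49.6% of all genes), and the median was -0.03. Closest was the tight-junction protein Tjp1 at 0.31 ± 0.10 (SE; limma adjusted p = 0.0784), then E-cadherin (Cdh1) at -0.32 ± 0.16 (SE; limma adjusted p = 0.289) and Cldn7 at -0.20 ± 0.12 (SE; limma adjusted p = 0.397).

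Markers of other tissue in the sections were set against these genes, in 88 correlations of the 8 genes with 11 marker lists. Tbx18 followed the fibroblast score (r = 0.842, rho = 0.835, permutation adjusted p = 0.000147), and still did without the 6 low arrays (0.736) and at position 1 (0.84) and position 4 (0.934). Krt19 followed the adipocyte score (r = 0.776, rho = 0.713, permutation adjusted p = 0.000147; 0.755 without the 6 low arrays, 0.78 at position 1, 0.756 at position 4). Wt1 followed the T and B lymphocyte score (r = 0.756, rho = 0.566, permutation adjusted p = 0.00066), with 0.864 without the 6 low arrays, 0.662 at position 1 and 0.923 at position 4. The fibroblast score passed with 8 of the 8 genes by Pearson's r and by Spearman's rho, the adipocyte score with 7 by each and the macrophage score with 6 by each. The smooth muscle and pericyte score passed with 6 by r and 5 by rho, the airway and alveolar score with 3 and 6, and the T and B lymphocyte score with 2 and 4. The endothelial score passed with 2 by each, the blood score with 2 and 0 and the liver score with 0 and 1. The ventricular score passed with 1 by r and 2 by rho, all negative. Krt18 ran against it (r = -0.515, rho = -0.601, permutation adjusted p = 0.0154). For this pair r was -0.865 without the 6 low arrays, -0.521 at position 1 and -0.847 at position 4. The atrial score correlated past the threshold with 7 of the 8 genes by Pearson's r and with 6 by Spearman's rho, which left out Krt18 as well as Krt8. Upk3b kept this relation best (r = 0.734, rho = 0.569, permutation adjusted p = 0.00135), with 0.577 without the 6 low arrays, 0.634 at position 1 and 0.645 at position 4. Upk1b followed the atrial score over all arrays (r = 0.772, rho = 0.537, permutation adjusted p = 0.000147) and at position 1 (0.842). It gave 0.0045 at position 4, which held none of the 6 low arrays, and 0.252 without those 6. They are the 6 lowest for Upk1b itself, so leaving them out cannot show what the relation rested on.

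Marker lists were also set side by side between arms. All 9 ventricular genes were above 0 in carbon black minus control over the 3 days (median 0.26) and at day 3 (median 0.50). Of all genes, 49.6% and 47.1% were below 0 in these comparisons. Over the 3 days 4 of the 9 had an unadjusted limma p under 0.05 (18.3% of all genes) and 1 passed (1.95% of all genes). The 1 was Tnni3, cardiac troponin I, at 0.82 ± 0.22 (SE; limma adjusted p = 0.0461), which passed in 9 of 34 fits with an array left out. Tnni3 did not pass with slide, scan day or position as a fixed block or with Agilent's processed signals. Nor did Tnni3 pass without the filter on dim probes or without control day 3 replicates 4 to 6. Next by unadjusted p were Myl3 (0.67 ± 0.20, SE; limma adjusted p = 0.0649) and Actc1 (0.43 ± 0.14, SE; limma adjusted p = 0.0934). All 9 tested adipocyte genes were above 0 over the 3 days (median 0.37), with 3 of 9 above 0 at day 1 (median -0.22), 8 at day 3 (0.79) and 9 at day 28 (0.44). None of these 9 passed over the 3 days, the closest being Lpl (0.44 ± 0.14, SE; limma adjusted p = 0.0839), Fabp4 (0.34 ± 0.13, SE; limma adjusted p = 0.155) and Ucp1 (0.84 ± 0.86, SE; limma adjusted p = 0.67). Over the 3 days all 6 atrial genes were above 0 (median 0.41), 7 of 9 fibroblast genes were below 0 (median -0.34) and 6 of 7 liver genes were below 0 (median -0.76), and none passed. At day 1 all 9 fibroblast genes were below 0 (51% of all genes). Of these, 7 had an unadjusted limma p under 0.05 (7.21% of all genes) and 0 passed. The fibroblast score averaged -0.71 ± 0.76 in carbon black and 0.06 ± 0.47 in control hearts at day 1 (SD, n = 6 each), with carbon black replicate 6 lowest at -1.97. It averaged 0.17 ± 0.43 in carbon black (SD, n = 5) and 0.07 ± 0.56 in control hearts (SD, n = 6) at day 3. At day 28 it averaged -0.10 ± 0.31 in carbon black (SD, n = 5) and 0.01 ± 0.38 in control hearts (SD, n = 6). The adipocyte score averaged -0.66 ± 1.55 in carbon black and -0.41 ± 1.49 in control hearts at day 1 (SD, n = 6 each), 0.18 ± 0.77 in carbon black (SD, n = 5) and -0.56 ± 1.61 in control hearts (SD, n = 6) at day 3, and -0.24 ± 1.71 in carbon black (SD, n = 5) and -0.83 ± 1.21 in control hearts (SD, n = 6) at day 28. At day 1 the atrial score averaged -0.43 ± 1.93 in carbon black and -0.57 ± 1.76 in control hearts (SD, n = 6 each). At day 28 the atrial score ran from -0.16 to 0.59 in carbon black hearts and from -3.91 to 0.29 in control hearts, with the 1 low control array at the bottom. Without the 5 arrays of low atrial score, the direction of Upk3b, Wt1, Krt19 and Tbx18 at day 28 turned, to -0.22, -0.02, -0.13 and -0.08, and none passed. Liver and airway scores were highest in control hearts of day 3, at up to 3.87 and 3.95, against up to 2.72 and 1.01 in carbon black hearts of that day. Their part in the values of the 8 genes was not tested.

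Carbon black and control arrays of the same day and slide could be set side by side in 10 pairs. Msln was higher in the carbon black heart in 7 of 10 pairs, with differences from -0.54 to 3.29 and a median of 0.34. Wt1 was higher in 7 of 10 (median 0.66, from -0.49 to 2.31), and Krt18 in 3 of 10 (median -0.20, from -0.95 to 0.78). The largest Msln difference, 3.29, came from the slide that held replicate 4 of both arms at day 3 (0.55 in the carbon black and -2.73 in the control heart). That carbon black array had 65.2% of spots well above background and that control array 49.4%, and the part of depth was not tested. With slide as a fixed block, the 3-day effects were 0.65 ± 0.45 for Msln (SE; limma adjusted p = 0.554) and 0.53 ± 0.26 for Wt1 (SE; limma adjusted p = 0.366). With position as a block, Msln changed sign to -0.04 ± 0.45 (SE; limma adjusted p = 0.996), so for Msln and Upk3b the direction depended on how arm and position were separated.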

How the data were processed

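Total RNA of 34 hearts (200 ng each) was hybridised to 2-colour Agilent mouse arrays by the authors, with Cy5 for the heart and Cy3 for the reference, per the labels. Per the file headers, images were read with Feature Extraction 10.1.1.1, and the header gives build mm8; the intensities of each spot are as deposited by the authors. Median signals were used because mean signals are not among the columns used here. The authors' deposited value table is on a log2 scale, with column medians of -0.0554 to -0.0336, and agreed at r = 0.9955 to 0.9981 with loess-normalised ratios without background correction, which settles its scale, centring and direction. With the background correction used here r was 0.9841 to 0.9954 on 33 arrays and 0.8474 on carbon black day 1 replicate 6.

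Spots were corrected with normexp (offset 50), normalised by loess within arrays with control spots at weight 0, and averaged by probe. A probe was kept if, in 1 group or more, a share of 0.5 of the arrays or more had it well above background, with at most 3 values missing (25249 probes), and 1 probe for each gene, of highest mean signal, entered limma 3.58.1 (R 4.3.3) with 6 group means and 28 residual degrees of freedom. Names came from RefSeq accessions (23374 probes). The number of arrays limits the precision. Labels number every array as a separate sample of individual mice, so p-values measure the spread between these hearts. Correlations used 1e+05 permutations within groups, and 1e-05 is the smallest p they can give before adjustment. The fit was tested on simulated data. Members and lists were chosen with earlier results of these data known. Named were all 8 members, the 3 genes most like each of them (10 for their mean), and of each list described by its genes, not as a score only, the genes that passed and the 3 of smallest unadjusted p. Alternatives are given in the closing section.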

Additional observations from a re-analysis of the deposited data

Results flagged for a closer look

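Of the 48 groups of 5 or 6 arrays (8 genes in 6 groups), 4 held an array whose gap to its nearest neighbour exceeded Dixon's 95% critical value, and each of the 4 groups held 6 arrays, for which it is 0.625 of the group's range; chance flags about 1 in 20 groups. Upk1b (-0.222, nearest other 1.41) and Tbx18 (-0.356, nearest other 0.498) were low in control day 3 replicate 4, with gaps of 0.732 and 0.754 of the range. Upk3b was low in control day 28 replicate 2 (0.00762, nearest other 1.77, gap 0.653). Krt8 by its brighter probe was low in control day 3 replicate 1 (-3.83, nearest other -2.91, gap 0.673), where the dimmer probe gave -2.41. Both arrays of the first 3 flags had low atrial scores, -4.13 and -3.91, and the part of atrial content in them was not tested.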

How the results depend on the processing

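No epicardial or mesothelial gene passed under any of 45 alternative settings in any of 6 comparisons (0 of 2160 results, lowest adjusted p = 0.0654, for Wt1), and 89 of the 2160 had the opposite sign; none of these was called, and the causes were not tested. The signs that turned were these, as log2 fold changes. With median centring in place of loess, the values were for day 1 Krt18 0.187, Tbx18 0.0917, and for day 3 Krt18 0.124, Krt19 0.409, and for day 28 Krt8 0.193, Krt18 0.0964, and for the 3-day mean Krt18 0.136, and for day 28 minus day 1 Krt8 -0.0278, Krt18 -0.0565, on a scale where the median of all genes was 0.208 at day 1, 0.285 at day 3, 0.0792 at day 28 and 0.188 for the 3-day mean. Without background correction, the values were for day 1 Tbx18 0.0202, and for day 28 minus day 1 Krt18 -0.00573. With Agilent's processed signals, the values were for day 1 Tbx18 0.0734, and for day 3 Krt8 -0.254, Krt19 0.046, and for the 3-day mean Krt8 -0.129, and for day 3 minus day 1 Tbx18 -0.0289, and for day 28 minus day 1 Krt8 -0.0203. With the authors' deposited value table, the values were for day 1 Krt19 -0.0292, Tbx18 0.00556, and for day 28 minus day 1 Krt8 -0.00484, Krt18 -0.0276. With slide as a fixed block, the values were for day 3 Krt19 0.0781, and for day 28 Krt8 0.0708, Krt18 0.0326. With scan day as a fixed block, the values were for day 28 minus day 1 Krt8 -0.0183, Krt18 -0.0414. With position as a fixed block, the values were for day 1 Msln -0.0105, Upk3b -0.351, and for day 3 Msln -0.189, Upk3b -0.103, Krt8 -0.0432, and for day 28 Upk3b -0.128, and for the 3-day mean Msln -0.0412, Upk3b -0.194, Krt8 -0.042, and for day 28 minus day 1 Krt8 -0.014. Without the 5 arrays of low atrial score, the values were for day 1 Krt19 -0.05, and for day 3 Krt19 0.0697, and for day 28 Upk3b -0.222, Wt1 -0.0215, Krt19 -0.13, Tbx18 -0.0815, and for the 3-day mean Krt19 -0.0368, and for day 28 minus day 1 Krt18 -0.0394. Without control day 3 replicates 4 to 6, here called the 3 arrays of high liver score, the value was for day 3 Msln -0.27. Leaving out each array in turn gave ranges that crossed 0 in 18 results: for day 1 Upk3b -0.284 to 0.465, Krt19 -0.139 to 0.348, Tbx18 -0.178 to 0.0529, and for day 3 Msln -0.0934 to 0.731, Upk3b -0.0244 to 0.742, Krt8 -0.0975 to 0.202, Krt19 -0.369 to 0.357, and for day 28 Upk3b -0.222 to 0.319, Wt1 -0.0465 to 0.342, Krt8 -0.101 to 0.055, Krt19 -0.13 to 0.449, Tbx18 -0.0815 to 0.233, and for the 3-day mean Krt19 -0.00488 to 0.247, and for day 3 minus day 1 Upk1b -0.0579 to 0.344, Krt19 -0.0488 to 0.314, and for day 28 minus day 1 Krt8 -0.032 to 0.0828, Krt18 -0.0537 to 0.0789, Krt19 -0.0022 to 0.324. Over all genes, the 386 that passed for the 3-day mean became 1336 with median centring (1336 higher, 0 lower), 1487 without background correction, 1491 with the authors' deposited table (819 higher, 672 lower), 1022 without the 5 arrays of low atrial score, 153 without the filter on dim probes, 1 without the 3 arrays of high liver score and 0 with Agilent's processed signals (2163 at an unadjusted p under 0.05) or with slide (2848), scan day (3209) or position (1501) as a fixed block in limma; leaving out each array in turn it ran from 0 to 947, with 0 without carbon black day 28 replicate 3 and 947 without control day 3 replicate 3. The count at day 1 was 1 with scan day as a block and 0 to 3 with each array left out, at day 3 0 to 1, at day 28 0 to 0, for day 3 minus day 1 it was 5 with Agilent's processed signals and 0 to 3 with each array left out, and for day 28 minus day 1 and the difference between days 0 to 0. Pairs of genes that passed the correlation test numbered 25, against 8 within position 4 (Upk3b with Krt8 -0.0018, Krt8 with Krt19 -0.0484) and 15 without the 6 lowest arrays (Upk3b with Krt8 -0.1, Krt8 with Krt19 -0.0728), a setting chosen after the data were seen, as was leaving out the 5 arrays of low atrial score (19) and carbon black day 1 replicate 6 (25) for correlations. No paired analysis was possible by replicate number because the numbers were given in the order of the samples and do not mark shared animals or days; hearts of a shared slide were set side by side, and slide was fitted as a block, instead. The dimmer Tbx18 probe was not well above background on 19 of 34 arrays, which limits it.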
